A study of Mus musculus with 8 samples.

Results

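The WAVE complex genes examined here are Abi1, Abi2, Wasf1, Wasf2, Wasf3, Nckap1, Cyfip1 and Cyfip2, 8 of the 12960 genes that could be measured as genes on the arrays. Their probe sets were taken by annotated symbol: every probe set, a small group of array probes with 1 signal, that the platform annotation gives to exactly 1 of these symbols. That gave 203 of the 303629 probe sets with a single symbol, and 191 of the 203 were bright enough to be retained. The genes were chosen by their measured values in the contrast of Ptbp2 KO with wild type cortex, the gene medians and the difference of each probe set from its gene median, so their values in that contrast are given as a description, with no test. Calls made over the whole table that fell on these genes are counted, but are no test of them. RNA from the cortex at embryonic day 18.5 was measured in 4 Ptbp2 KO embryos and 4 wild type embryos, 1 Affymetrix mouse exon array each, all on a mixed CD1 and C57BL/6 background. The labels give Ptbp2 as the only difference between the groups. It encodes a neuronal RNA-binding protein that represses many alternative exons. The construction of the KO allele and the cells it acts in are not stated in the labels.

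The WAVE complex is the main switch that connects the small GTPase Rac to branched actin. It holds a WAVE protein (Wasf1, Wasf2 or Wasf3), an Abl interactor (Abi1 or Abi2), a Cyfip subunit, Nckap1 and the small subunit Brk1. At rest the Cyfip and WAVE subunits keep each other inactive. When Rac binds Cyfip, the tail of the WAVE protein is freed and activates the Arp2/3 complex, which starts new actin branches. In developing cortex this machinery drives lamellipodia, growth cones, neuronal migration and later dendritic spines.

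Ptbp2 itself had log2 signals of 6.24, 5.80, 5.54 and 6.22 in Ptbp2 KO cortex, against 11.40, 11.15, 11.08 and 11.16 in wild type cortex. Its level was lower in Ptbp2 KO by 5.25 log2 units (adjusted p = 1.7e-12, limma). The median signal of an array lay between 6.82 and 6.93, no 2 arrays were identical, and correlations between arrays lay between 0.969 and 0.985. Ptbp2 KO array 3 and wild type array 3 lay farthest out on the first 2 principal components, at distances of 19.6 and 21.6 from the centre. Wild type array 1 was close behind at 18.2, and Ptbp2 KO array 1 came next at 12.5. Results that rest on the arrays numbered 3 are also given without them. The labels and series design name the samples as biological replicates of each group, and replicate numbers carry no stated pairing. The mean log2 signal of 9 excitatory markers lay between 10.26 and 10.37 in Ptbp2 KO and between 10.21 and 10.47 in wild type. That of 8 general neuronal markers lay between 11.54 and 11.63 in Ptbp2 KO and between 11.62 and 11.87 in wild type, which overlapped narrowly. Of these markers, 4 were higher and 4 lower in Ptbp2 KO, with a median difference of -0.0020. One of these 8, Snap25, a vesicle fusion protein named here after its values were seen, was the only gene called in any marker list, at 10.06 ± 0.16 in Ptbp2 KO and 10.90 ± 0.20 in wild type (SD, n = 4 each; difference -0.84, adjusted p = 0.0048, limma).

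In Abi2, 2 probe sets differed between the groups far more than the others did. Abi2 encodes an Abl interactor, which binds the WAVE protein and helps hold the complex together. Of its 18 retained probe sets, these 2 were lower in every Ptbp2 KO embryo than in any wild type embryo, and their mean differences exceeded 1 log2 unit. Over all probe sets, 1.28% were lower without overlap, from which nothing is read because this contrast chose the genes. Usage, the log2 signal of a probe set minus the median over its gene on the same array, compares a probe set with the other probe sets of the gene. The mean usage of the other 16 differed by at most 0.26 in size. The level of the gene differed by less than its standard error.

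The first of the pair is probe set 4855890. Its log2 signal was 9.85, 9.53, 9.17 and 9.55 in the Ptbp2 KO embryos, against 11.04, 10.50, 10.94 and 10.85 in the wild type embryos. The groups did not overlap, and Ptbp2 KO embryo 3 was the lowest. The usage of 4855890 was -1.48, -1.68, -1.96 and -1.68 in Ptbp2 KO, against -0.34, -0.70, -0.29 and -0.38 in wild type. That is a difference of -1.28 (SE 0.13, n = 4 embryos a group), a usage 2.42-fold lower in Ptbp2 KO. Without array 3 of each group it was -1.14.

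The second, probe set 4778607, had log2 signals of 9.21, 9.03, 8.88 and 9.19 in Ptbp2 KO, against 10.39, 10.22, 10.68 and 10.14 in wild type. Its usage was -2.12, -2.18, -2.25 and -2.04 in Ptbp2 KO, against -0.99, -0.99, -0.54 and -1.08 in wild type. Again no Ptbp2 KO embryo reached the lowest wild type value. The usage difference was -1.24 (SE 0.12, n = 4 a group), a usage 2.37-fold lower in Ptbp2 KO, and -1.09 without array 3 of each group. In size the pair ranked 11 and 12 among the 17 probe sets called for usage in the whole table. Their values in this contrast helped choose the genes, so these calls are no test of the pair. With 1 array left out, 6 to 12 probe sets were called over the whole table, and of the pair 4855890 alone without wild type array 2, 4778607 alone without wild type array 3, and neither without any of the other 6. Neither was called with no signal filter, with the replicate number as a block or without array 3 of each group. Their positions on the gene and the exons they lie in were not used here, so it is not known here whether they probe 1 exon or 2.

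**Figure D1:**
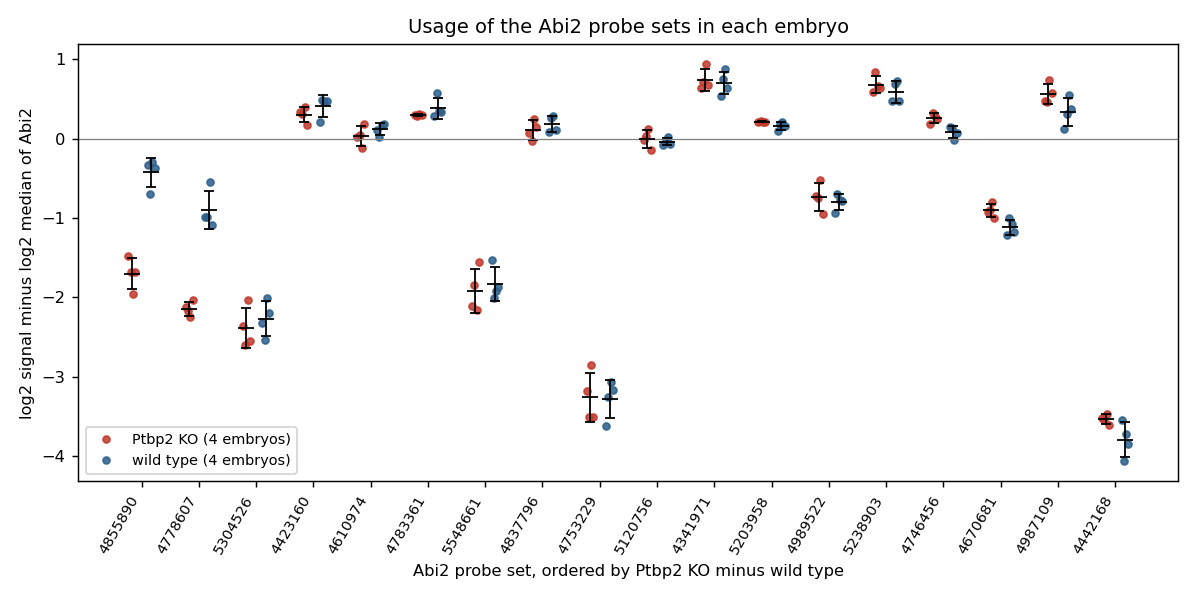
Usage of the 18 retained Abi2 probe sets: the vertical axis is the log2 signal of a probe set minus the log2 median of Abi2 on the same array, and the horizontal axis orders the probe sets by their difference. Red points are the 4 Ptbp2 KO embryos and blue points, to their right, the 4 wild type embryos, with bars for the mean and SD. The leftmost pair, 4855890 and 4778607, are the only ones whose groups are separated by a wide gap.

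The usage differences of the other 16 retained Abi2 probe sets ran between -0.12 and 0.26. Of these, 4746456 had groups that did not overlap, with a difference of 0.18. The largest positive difference, 0.26, belonged to 4442168, at usages of -3.52, -3.55, -3.47 and -3.61 in Ptbp2 KO, against -3.54, -4.07, -3.72 and -3.85 in wild type, where the groups overlapped. The gene's 1 probe set under the signal filter, 4640584, had mean log2 signals of 5.44 in Ptbp2 KO and 6.17 in wild type, with overlapping groups.

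The level of Abi2, the median of its retained probe sets, was 11.33, 11.21, 11.13 and 11.23 in Ptbp2 KO, against 11.38, 11.20, 11.23 and 11.23 in wild type. The groups overlapped. The difference was -0.034 (SE 0.089, 95% interval -0.22 to 0.16). Its near-relative Abi1, the other Abl interactor, was at 10.96, 10.95, 10.87 and 11.01 in Ptbp2 KO, against 11.11, 10.90, 10.81 and 11.01 in wild type, a difference of -0.0084 (SE 0.093). None of the 16 Abi1 probe sets had groups apart in usage, and their differences ran between -0.26 (probe set 5292028, and -0.037 without Ptbp2 KO array 3) and 0.17 (probe set 5368548). The log2 ratio of the Abi2 to the Abi1 level averaged 0.28 ± 0.064 in Ptbp2 KO and 0.30 ± 0.082 in wild type (SD, n = 4 each), which overlapped.

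Among the lists of markers of other cell types, the striatal one was the only list whose means did not overlap between the groups. The mean log2 signal of 6 tested striatal markers, of 7 listed, lay between 8.70 and 9.05 in Ptbp2 KO and between 9.12 and 9.50 in wild type, with all 6 lower and none called. In a bulk sample, fewer cells of a type and less RNA per cell cannot be told apart. The 7 choroid plexus markers all had a lower mean in Ptbp2 KO, with list means between 7.23 and 8.89 in Ptbp2 KO and between 8.60 and 8.79 in wild type. The Ptbp2 KO embryos differed widely among themselves, and the highest list mean was in one of them. All 7 markers had a larger SD in Ptbp2 KO, for Ttr 1.96 against 0.026 in wild type (n = 4 each). Of 6 tested microglial markers, of 10 listed, 5 were higher, with list means between 8.34 and 8.61 in Ptbp2 KO and between 8.11 and 8.43 in wild type. All 4 oligodendrocyte markers were lower, with list means between 8.32 and 8.47 in Ptbp2 KO and between 8.43 and 8.73 in wild type. Of 6 interneuron markers, 5 were lower, with list means between 9.74 and 10.002 in Ptbp2 KO and between 9.91 and 10.11 in wild type. Radial glia, vessel and erythroid markers were higher for 4 of 7, 3 of 5 and 1 of 2. The part of these differences, and of that in the mean of the neuronal list, in the Abi2 values, and in the Cyfip2 values that follow, was not tested.

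**Figure D2:**
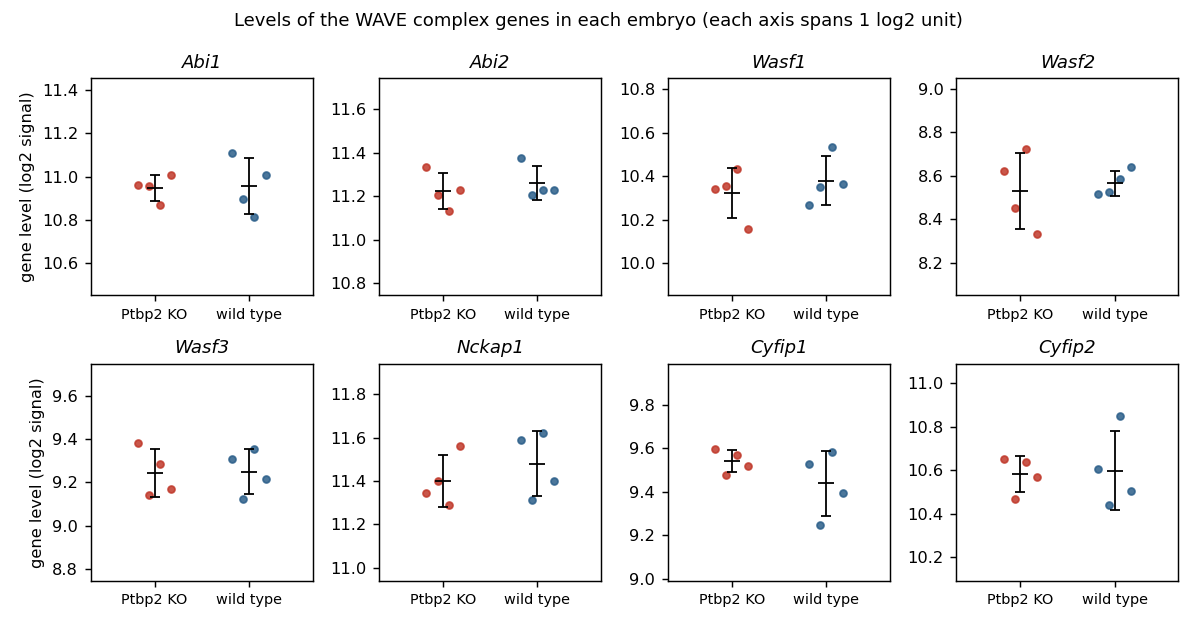
Level of each of the 8 WAVE complex genes in each embryo, as the median log2 signal of its retained probe sets. Each panel spans 1 log2 unit. Points are embryos, with Ptbp2 KO on the left and wild type on the right, and bars give the mean and SD. In every panel the groups overlap.

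The Cyfip subunits are the ones that Rac binds. Cyfip2 had a single probe set that stood apart upward, 4863928, at log2 signals of 9.26, 9.10, 8.92 and 9.14 in Ptbp2 KO, against 7.69, 8.20, 8.08 and 8.26 in wild type. All 4 Ptbp2 KO signals were above all 4 wild type signals. In usage it was -1.39, -1.37, -1.72 and -1.43 in Ptbp2 KO, against -2.91, -2.23, -2.77 and -2.25 in wild type. The difference was 1.06 (SE 0.17, n = 4 a group), 2.09-fold higher in Ptbp2 KO, and 1.07 without array 3 of each group. The other 35 retained Cyfip2 probe sets differed by -0.20 to 0.27 with overlapping groups. The level of Cyfip2 was 10.65, 10.47, 10.64 and 10.57 in Ptbp2 KO, against 10.60, 10.44, 10.85 and 10.50 in wild type, a difference of -0.016 (SE 0.10).

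Cyfip1 had its largest differences downward, and they leaned on 1 array. Probe set 4947953 had usages of -3.04, -2.42, -3.78 and -2.49 in Ptbp2 KO, against -2.06, -2.17, -2.31 and -2.13 in wild type, which did not overlap. Its difference was -0.77 (SE 0.26), and -0.48 without Ptbp2 KO array 3. Its mean log2 signal was 6.61 in Ptbp2 KO, below the signal filter of 6.84, and 7.27 in wild type. Probe set 4486075 likewise differed by -0.44, and by -0.22 without Ptbp2 KO array 3. Probe set 4596444 was also apart in usage, by -0.11. Its mean log2 signal was 10.33 in Ptbp2 KO and 10.34 in wild type, with overlapping groups. The level of Cyfip1 was 9.59, 9.48, 9.57 and 9.52 in Ptbp2 KO, against 9.53, 9.24, 9.58 and 9.40 in wild type, a difference of 0.10 (SE 0.096) with overlap.

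Of the 5 ratios of subunit levels that were computed, that of the 2 Cyfip genes was the 1 whose groups did not overlap. The log2 ratio of Cyfip2 to Cyfip1 lay between 0.99 and 1.07 in Ptbp2 KO and between 1.08 and 1.26 in wild type, with means of 1.04 ± 0.035 in Ptbp2 KO and 1.16 ± 0.086 in wild type (SD, n = 4 each). The gap between the closest embryos of each group was narrow. How often ratios of other gene pairs do not overlap was not computed, so nothing is read from this one. No ratio was recomputed with an array left out, and the Cyfip2 level difference itself ran from -0.070 to 0.067 over the settings. The ratios of Abi2 to Abi1, Wasf1 to Wasf2, Wasf3 to Wasf2 and Wasf1 to Wasf3 all overlapped.

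Nckap1, the large scaffold that Cyfip binds, had no probe set apart between the groups. Its level was 11.34, 11.40, 11.29 and 11.56 in Ptbp2 KO, against 11.59, 11.31, 11.62 and 11.40 in wild type, a difference of -0.080 (SE 0.10). The usage differences of its 35 retained probe sets ran between -0.29 and 0.18, and the lowest, of probe set 5165633, was -0.062 without Ptbp2 KO array 3.

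The 3 WAVE proteins carry the tail that activates Arp2/3. Wasf1, which is enriched in brain, was at 10.34, 10.35, 10.43 and 10.16 in Ptbp2 KO, against 10.27, 10.35, 10.53 and 10.36 in wild type, a difference of -0.058 (SE 0.096). Wasf2 was at 8.62, 8.45, 8.72 and 8.33 in Ptbp2 KO, against 8.52, 8.53, 8.58 and 8.64 in wild type, a difference of -0.035 (SE 0.10). Wasf3 was at 9.38, 9.14, 9.28 and 9.17 in Ptbp2 KO, against 9.31, 9.12, 9.35 and 9.21 in wild type, a difference of -0.0063 (SE 0.094). All 3 levels overlapped between the groups. In usage, Wasf1 had no probe set apart: its extremes were -0.41 for 4381685 and 0.13 for 4465376. Wasf2 had 4901119 apart at -0.38, or -0.23 without array 3 of each group, with mean log2 signals of 8.77 in Ptbp2 KO and 9.19 in wild type. Wasf3 had 4354302 apart at -0.22. The Wasf3 probe set 4466817 was the gene's median on every array, so its usage was 0 by construction.

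**Figure D3:**
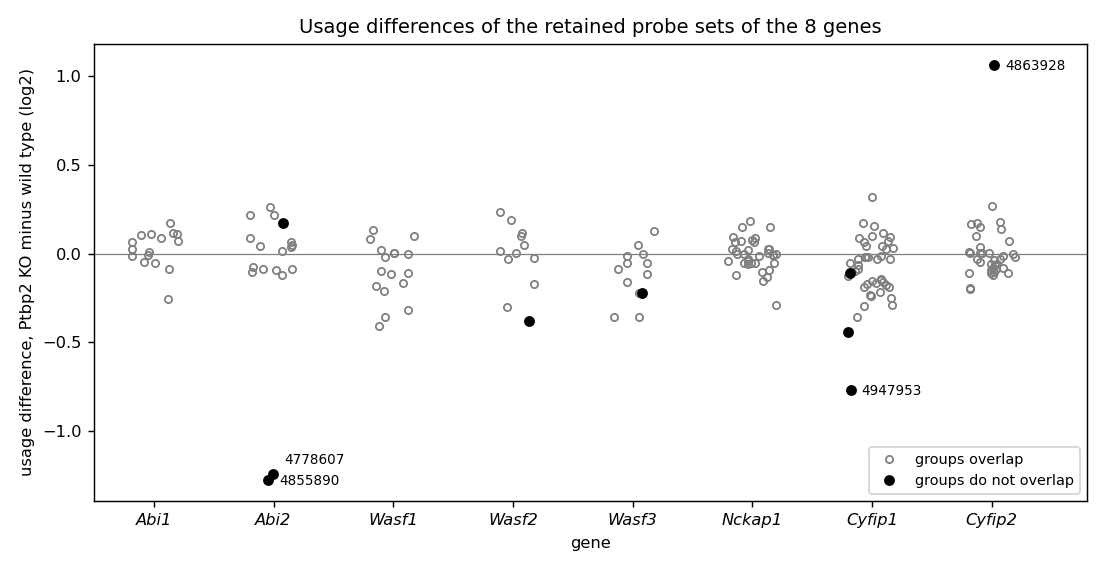
Usage difference, Ptbp2 KO minus wild type in log2 units, of each of the 191 retained probe sets, by gene. Filled points are the 9 whose groups did not overlap and open points the others. The Abi2 pair near -1.28 and -1.24, Cyfip2 4863928 at 1.06 and Cyfip1 4947953 at -0.77 are labelled.

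Over the 8 genes, 9 of the 191 retained probe sets (4.71%) had groups that did not overlap, against 2.92% of all 195604 probe sets. They were 2 higher and 7 lower in Ptbp2 KO, and over all probe sets 1.64% were higher and 1.28% lower without overlap. The 2 called for usage at an adjusted p under 0.05, both of Abi2, compare with 0.00869% of all probe sets called, and 0.00409% called lower. As given above for single arrays, the signal filter and the block, these 2 calls were lost under several alternatives. The contrast helped choose the genes, so nothing is read from either share. Usage differences over 1 were seen in 3 of the 191, against 0.0363% of all probe sets, and over 0.5 in 4, against 1.02%. Nothing is read from these shares, for the same reason. The differences of 171 lay within 0.25. In level, 0 of the 8 genes had groups apart, where 3.65% of the 12960 genes did, and 0.116% of genes were called.

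Ptbp2 KO array 3 moved with some of these values. Among the 4 Ptbp2 KO arrays it had the lowest usage in 38.7% of the members' probe sets, against 27.7% of all probe sets. The second wild type array had the highest usage among wild type arrays in 40.3%, against 27.6%. Wild type array 3 had it in 18.3%, against 30.7%, and wild type array 4 in 9.9%, against 17.2%. Probe sets of a gene share its median, so these shares do not count independent values. Beyond the values given without array 3, the part of any of these arrays in the differences was not tested.

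**Figure D4:**
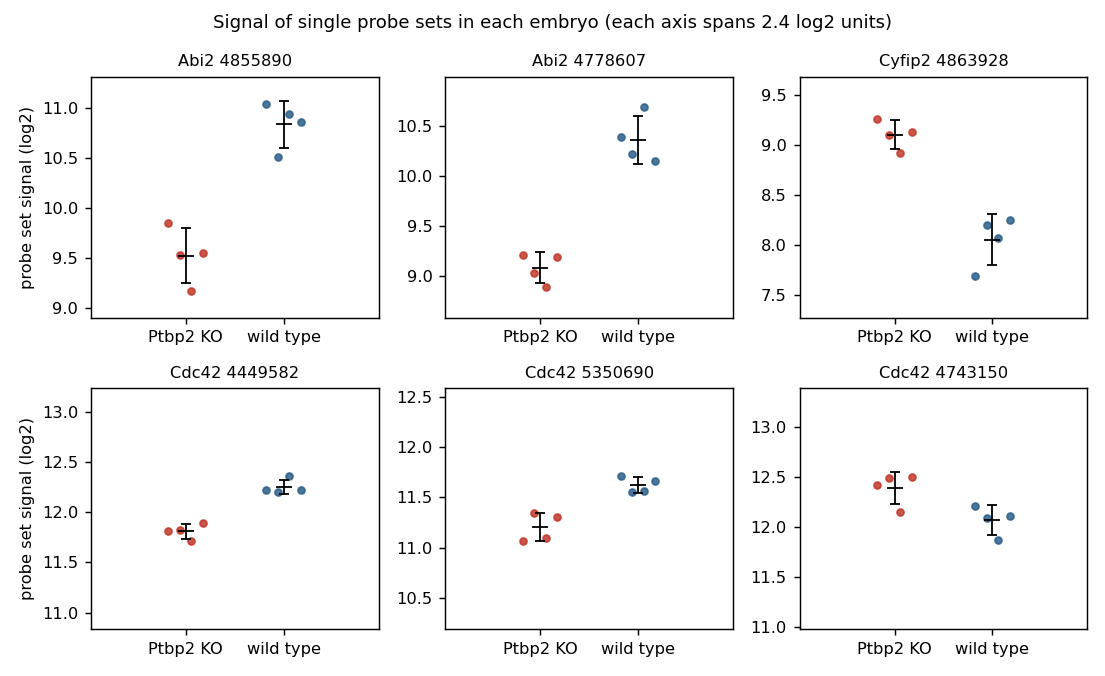
Log2 signal of single probe sets in each embryo, with Ptbp2 KO left of wild type and bars for the mean and SD. The upper panels show Abi2 4855890 and 4778607, lower in all 4 Ptbp2 KO embryos, and Cyfip2 4863928, higher in all 4. The lower panels show 3 Cdc42 probe sets, 2 lower and 1 higher in Ptbp2 KO.

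Genes that act with the WAVE complex were taken from a list that was drawn up with earlier results of these data known: 98 genes, of which 92 could be tested. The others did not have 4 retained probe sets with a single symbol. They cover the other WAVE subunits, the Arp2/3 complex, its other regulators, Rac with its activators, partners of Abi and WAVE, and actin turnover. In level, none was called: 41 were higher and 51 lower in Ptbp2 KO, the median difference was -0.014 and the range -0.21 to 0.21. With limma, 1 of the 92 had an unadjusted p under 0.05, against 6.49% of all genes. That was Vasp, which extends actin filaments, at 8.59 ± 0.063 in Ptbp2 KO and 8.39 ± 0.017 in wild type (SD, n = 4 each), a difference of 0.19 (adjusted p = 0.75). Coro1b, which detaches Arp2/3 branches, differed by 0.18, and Abi3, another Abl interactor, by -0.17. These 3 were the genes of the list whose groups did not overlap, 3.26% of the 92, against 3.65% of all genes.

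Among the other genes with the smallest p of their lists, the differences were as small. Arpc5l, an Arp2/3 subunit, differed by 0.21 and Actr3 by -0.11. Arhgef7 and Tiam2, which load GTP onto Rac, differed by -0.17 and -0.15. Limk2, which phosphorylates cofilin, differed by 0.17 and Capzb, a capping protein subunit, by 0.10. Washc2, of the endosomal WASH complex, differed by -0.21 and the adhesion protein Pcdh17 by -0.16. Nckap1l, the blood-cell form of Nckap1, differed by 0.069. The small WAVE subunit Brk1, which had the largest p of its list, differed by -0.0074. Several of these small values moved by over 1.5 times with 1 array left out. Without Ptbp2 KO array 3, the difference was -0.11 for Washc2, -0.032 for Actr3 and -0.094 for Pcdh17. Without wild type array 3, it was 0.14 for Arpc5l, 0.033 for Capzb and 0.11 for Coro1b. Abi3 was at -0.10 without Ptbp2 KO array 1, Tiam2 at -0.23 without wild type array 2, Actr3 at -0.065 and Pcdh17 at -0.10 without wild type array 1, and Nckap1l between -0.00044 and 0.14 over the 8 arrays left out in turn. None of the genes of this list passed the test with all arrays or with 1 left out. With all arrays, the smallest adjusted p after that of Vasp was 0.77, for Arpc5l (limma).

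**Figure D5:**
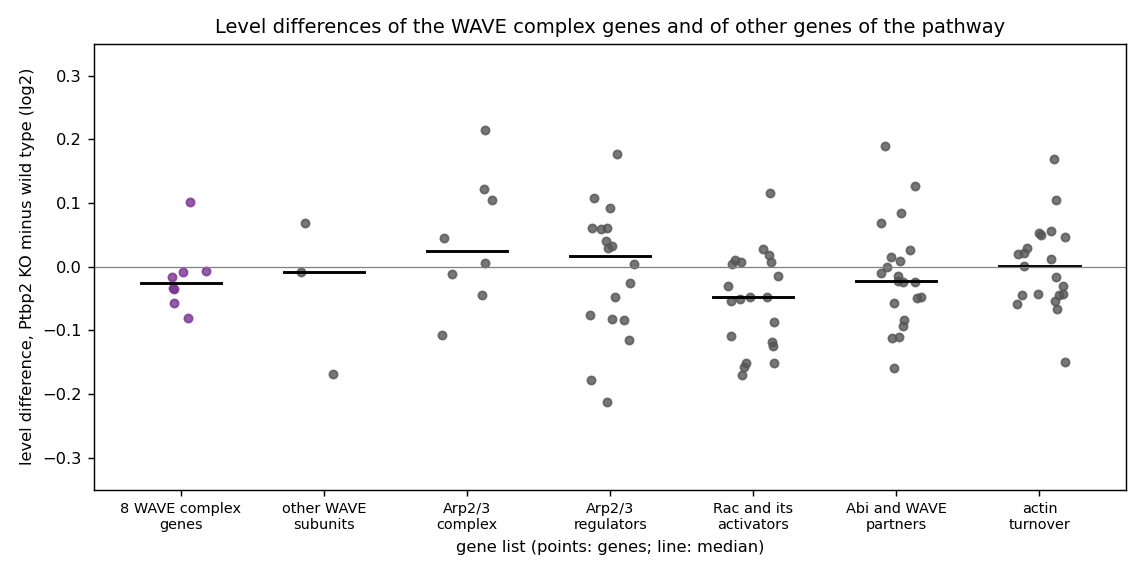
Level difference, Ptbp2 KO minus wild type in log2 units, of the 8 WAVE complex genes and of the 92 tested genes of 6 other lists. Each point is a gene and each line the median of its list. The points lie between -0.21 and 0.21, on both sides of 0 in every list.

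In usage, none of the 1833 retained probe sets of these genes was called with the splicing index. In simulated data that fit recovered only 30% of shifts of 1 log2 unit in a probe set, so smaller changes could be missed. An unadjusted p under 0.05 was seen for 80 (4.36%), against 5.27% of all probe sets. Groups did not overlap for 53 (2.89%), 39 higher and 14 lower, against 2.92% of all probe sets. With diffSplice, limma's comparison of a probe set with the remaining ones under a pooled spread, 2 were called, in Rac1 and Robo2, both with overlapping groups. In the simulated data diffSplice gave 871 false calls, against 7 with the splicing index. Those data lacked the variation over arrays that probe sets of a gene share, so the rates in the real data may differ.

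The probe sets of this list with the smallest p lay in Cdc42, a Rac-related GTPase, which was chosen after its values were seen. Probe set 4449582 had a usage of -0.58 ± 0.10 in Ptbp2 KO and -0.021 ± 0.043 in wild type (SD, n = 4 each), a difference of -0.56 (adjusted p = 0.25). It was itself the gene median on 3 of the wild type arrays, which fixes its usage there at 0. Its mean log2 signal was 11.81 in Ptbp2 KO and 12.25 in wild type. The neighbours in p, 5350690 and 4690906, differed by -0.54 and -0.45, while 4743150, the gene median on all Ptbp2 KO arrays, had signals of 12.39 in Ptbp2 KO and 12.07 in wild type. None of the 11 Cdc42 probe sets was called, and with a filter at the 75th percentile the first 3 differed by -0.11, -0.092 and -0.0093.

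The probe sets of other genes whose usage over the 8 arrays was most like that of Abi2 4855890 were found by the root mean square distance between centred usages. The nearest 5 genes were Seh1l (0.18), Pdzd4 (0.18), 3010001F23Rik (0.20), Nudt17 (0.21) and Masp1 (0.22), beside a root mean square of 0.66 for 4855890 itself. The gene's own 4778607 lay at 0.17. All of them were lower in every Ptbp2 KO embryo, with differences of -1.07 for Seh1l 5162538, -1.08 for Pdzd4 5380624, -1.06 for 3010001F23Rik 4411258, -1.21 for Nudt17 4383869 and -1.49 for Masp1 5084572. They were picked for closeness to 4855890, so a lower usage in Ptbp2 KO follows from the choice, and nothing is read from it. Those of Seh1l and Nudt17 were not called (adjusted p = 0.40 for each, limma).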

How the data were processed

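Each deposited value is a log2 signal of 1 probe set on 1 array. Expression Console from Affymetrix, RMA and mm9 are named by the submitters' processing notes, with no versions or roles. RMA includes quantile normalization, which removes differences in total RNA. Differences at low array signals are compressed. RNA was extracted with Trizol, per the labels. Arrays give no count depth; their number limits the precision.

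Symbols were updated through a RefSeq gene table of assembly GRCm38.p6, used for names only. Retained probe sets had a mean over 8 arrays of 6.84 or more, which is the table's median, and a gene needed at least 4 retained probe sets. Levels (medians) and usage (splicing index) were fitted in R 4.3.3 with limma 3.58.1 (lmFit, eBayes) over all genes or probe sets, with no covariate and Benjamini-Hochberg adjustment at 0.05. Ptbp2 was left out of usage.

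The members, gene lists and named genes were chosen with earlier results of these data known. Named probe sets are the 2 with the largest differences in either direction within a member and any called; per list, the called genes or the 2 with the smallest p; and the 5 genes most like Abi2 4855890. Cdc42, Brk1, Rac1, Robo2, Wasf3 4466817 and the probe sets given because their groups did not overlap were named after their values were seen.

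Both models were tested on simulated data. Each value was drawn independently around the mean of its probe set with its SD within groups. Variation over arrays that probe sets of a gene share was therefore absent, and the rates may differ in the real data. The level fit recovered 99% of shifts of 1 log2 unit and 82% of shifts of 0.5, with 9 false calls. For single probe sets, the splicing index recovered 30% of shifts of 1 and 80% of shifts of 1.5, with 7 false calls. There diffSplice recovered 93% and 100%, with 871 false calls. Results were recomputed without each array, with a replicate block, with other signal filters and normalizations, array weights, eBayes with trend and robust, means in place of medians, a minimum of 1 probe set, diffSplice and a threshold of 0.1.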

Additional observations from a re-analysis of the deposited data

Results flagged for a closer look

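In 5 of 116 groups of 4 values, 1 sample lay far outside the other 3 by Dixon's test. Chance gives about 1 in 20 among independent groups. Many of these groups were picked by their values and share arrays, so the rates are not compared. The Abi2 level of wild type embryo 1 was 11.38, above 11.20 to 11.23 in the other 3. The usage of Abi1 5399549 in Ptbp2 KO embryo 1 was 0.80, above 0.71 to 0.72. The Washc2 level of Ptbp2 KO embryo 3 was 8.86, below 9.25 to 9.30. The Arhgef7 level of wild type embryo 2 was 10.01, below 10.14 to 10.15. The usage of Cdc42 4449582 in wild type embryo 1 was -0.086, where the other 3 were fixed at 0 as the gene median.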

How the results depend on the processing

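Usage of Abi2 4855890 kept its direction under every alternative that was run, between -1.37 and -1.14. Leaving out 1 array gave 0 to 1 called member probe sets in place of 2: 1 without wild type 2 (4855890), 1 without wild type 3 (4778607), and 0 without any other array. The count was also 0 with the replicate block, with no signal filter, and without wild type 3 and Ptbp2 KO 3 together, a setting added after seeing the data; it was 4 with diffSplice, which added Cyfip2 4863928 and Cyfip1 4947953. Over all genes, 15 were called in level: 7 to 15 with 1 array left out, 9 without both arrays numbered 3, 7 with no filter, 25 with a filter at the 75th percentile, 24 with quantile normalization, 71 with array weights, 37 with the mean of probe sets, 5 with a minimum of 1 probe set and 28 at a threshold of 0.1. The probe sets changed in usage numbered 17: 6 to 12 with 1 array left out, 0 with the replicate block (11080 at an unadjusted p under 0.05), 0 without both arrays numbered 3 (8536 unadjusted), 7 with no filter, 11 at the 75th percentile, 31 with trend and robust, 34 with array weights, 33 with the mean, 31 at a threshold of 0.1 and 414 with diffSplice, which called 2 of the pathway's probe sets in place of 0. The replicate block gave 22 genes in level. With group means removed, same-numbered samples correlated between -0.0039 and 0.25. For 2 of the 4 Ptbp2 KO arrays, the most correlated wild type array had the same number. The labels state no pairing, and whether the numbers pair the samples was not tested. Small level differences turned sign for Nckap1l (-0.00044 without Ptbp2 KO 2, and up to 0.14 with another array left out), Capzb (-0.055 with no filter) and Arhgef7 (0.00016 at the 75th percentile). Of the member levels, Wasf1 stayed negative and Cyfip1 positive under all 18 settings, and the other 6 turned sign in some. The cause of these shifts was not tested. Array number and signal over background limit what small differences can show.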
